A study of Mus musculus with 8 samples.

Results

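The genes described here are 10 members of fibroblast growth factor (FGF) signalling, taken by symbol from the 24982 gene rows of the count table. They comprise the 5 ligand genes Fgf1, Fgf2, Fgf7, Fgf10 and Fgf18, the 2 receptor genes Fgfr1 and Fgfr2, and the 3 Sprouty genes Spry1, Spry2 and Spry4. RNA was sequenced from cultured tail tendon fibroblasts of C57Bl/6 mice. The 4 libraries of genotype Scx+ (Scx-positive, numbered 2, 3, 5 and 6) were compared with the 4 of genotype Scx- (Scx-deleted, numbered 2, 3, 4 and 5). All 8 had received 4HT treatment, so no untreated cells were compared. The labels name neither the Cre driver, nor the deleted part of Scx, nor the animals or cultures behind each library. p-values therefore reflect how these libraries vary among themselves, which may be technical variation.

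FGFs are secreted proteins that, with heparan sulfate as a cofactor, bind and dimerise receptor tyrosine kinases. The receptors signal through the adaptor FRS2, RAS and the kinases RAF, MEK and ERK, and ERK induces genes that restrain the same route, among them the Sprouty genes, the SPRED genes and dual-specificity phosphatases. In tendon development FGF signals from neighbouring muscle precursors are known to promote expression of Scx, the gene for the tendon transcription factor scleraxis, of the basic helix-loop-helix class. The comparison asks how this pathway's own genes stood in tendon fibroblasts that had lost Scx.

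Gene counts ranged from 17343228 to 25180790 per library. The Scx level, in CPM (counts scaled to the library's total, with TMM factors), was 7.92 ± 1.52 with the gene and 0.112 ± 0.0461 without it (SD, n = 4), a log2 change of -6.08 ± 0.27 (SE). The first principal component, with 53.3% of the variance, separated the groups, and the second, with 12.9%, set Scx-positive library 5 apart from the other seven, so results are also given without that library where it matters. Of the tendon markers 11 of 12 were tested, of which 8 fell, Scx itself among them, and 1 rose. Of all tested genes 14.5% fell and 14.0% rose. Kera had no count in any library. Summed, the markers stood at 8500 to 10700 CPM in Scx-positive and 6670 to 7320 CPM in Scx-deleted libraries. Most of this was Col1a1 and Col1a2, which averaged 3310 and 2980 CPM over all libraries. Among markers of other cell types, Cd3e, Myod1, Pax7 and Krt1 were at 0 in every library and Pecam1 and Ptprc averaged 0.207 and 0.0496 CPM, while Tek averaged 60.5, Acta1 33.2, Cd68 3.85, Krt10 3.0 and Csf1r 2.38 CPM.

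All 10 genes were measured well enough to be tested, and 6 of them changed. Fgf18 and Spry1 fell, and Fgf7, Fgf10, Spry2 and Spry4 rose, while Fgf1, Fgf2, Fgfr1 and Fgfr2 did not pass the test. Each was tested by quasi-likelihood in edgeR, with p adjusted by Benjamini-Hochberg over all 13125 tested genes, and a gene was called at an adjusted p under 0.05. Over all tested genes 28.5% were called in either direction, 14.0% higher and 14.5% lower. The median size of the log2 change was 0.29 over the 10 genes and 0.121 over all tested genes, and their median signed log2 changes were 0.17 and -0.01. The library values of the groups did not overlap for the same 6 genes that were called, where 29.1% of all tested genes had groups that did not overlap. In a bulk sample, fewer cells expressing a gene and less RNA per cell cannot be told apart.

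**Figure D1:**
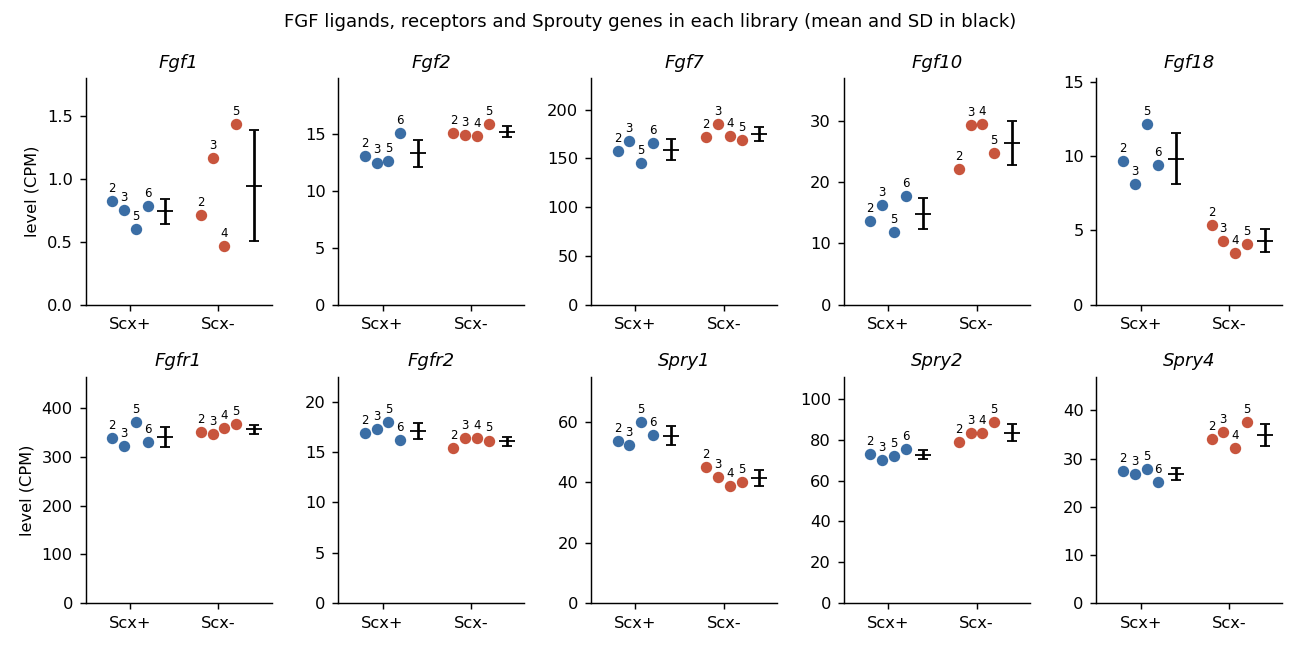
Level of each of the 10 genes in CPM (vertical axis, starting at 0) in each library, numbered as in the labels, for Scx-positive (Scx+, blue) and Scx-deleted (Scx-, red) cells, with the mean and SD of 4 libraries in black. For Fgf18 and Spry1 every Scx-deleted library lies below every Scx-positive one, and for Fgf7, Fgf10, Spry2 and Spry4 every Scx-deleted library lies above.

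Fgf18 encodes a ligand of the FGF8 subfamily that is known for its roles in cartilage and bone growth. Its level was 9.66, 8.13, 12.2 and 9.40 CPM in Scx-positive libraries 2, 3, 5 and 6, and 5.37, 4.26, 3.48 and 4.09 CPM in Scx-deleted libraries 2, 3, 4 and 5. The groups were well separated, with Scx-positive library 5 the highest of all and Scx-deleted library 4 the lowest. The mean fell from 9.85 ± 1.70 to 4.30 ± 0.785 CPM (SD, n = 4 each), to 0.436 of the Scx-positive level. The log2 change was -1.20 ± 0.14 (SE), with a 95% interval of -1.54 to -0.86 and an adjusted p of 1.17e-05 in edgeR. Without Scx-positive library 5 it was -1.07 with an adjusted p of 4.14e-07.

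Fgf10, a ligand that mesenchymal cells make and that acts on the epithelial form of FGFR2 in limb and lung, went the other way. It stood at 13.6, 16.2, 11.9 and 17.7 CPM in Scx-positive libraries 2, 3, 5 and 6, and at 22.1, 29.2, 29.5 and 24.8 CPM in Scx-deleted libraries 2, 3, 4 and 5. The lowest Scx-deleted library was above the highest Scx-positive one. The mean rose 1.78-fold, from 14.8 ± 2.59 to 26.4 ± 3.58 CPM (SD, n = 4 each). The log2 change of Fgf10 was 0.84 ± 0.12 (SE; 95% interval 0.55 to 1.12), with an adjusted p of 6.29e-05 in edgeR, and it was 0.74 without Scx-positive library 5. Within each library the ratio of Fgf10 to Fgf18 CPM was 0.974 to 1.99 in Scx-positive and 4.12 to 8.47 in Scx-deleted cells. That the ratios did not overlap follows from the separation of the groups for both genes, in opposite directions.

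Fgf7, the keratinocyte growth factor, which is made by fibroblasts and shares its receptor form with FGF10, rose slightly. Its levels were 157.4, 167.7, 144.8 and 165.6 CPM in Scx-positive libraries 2, 3, 5 and 6, and 172.0, 185.5, 172.7 and 169.2 CPM in Scx-deleted libraries 2, 3, 4 and 5. The groups met closely, at 167.7 and 169.2 CPM. The mean went from 158.9 ± 10.4 to 174.8 ± 7.26 CPM (SD, n = 4 each). The log2 change was thus 0.14 ± 0.05 (SE; 95% interval 0.02 to 0.26) with an adjusted p of 0.0486 in edgeR. That call was lost when Scx-positive library 2 or 5, or any one of the 4 Scx-deleted libraries, was left out (log2 changes of 0.10 to 0.16 and adjusted p up to 0.15), and with upper-quartile scaling (adjusted p 0.0996), whereas offsets for GC content and length gave 0.26. The adjusted p ranged from 4.5e-06 to 0.15 over the alternatives.

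Fgf2 and Fgf1, which lack a classical signal peptide and leave cells by an unconventional route, did not pass the test. Fgf2 stood at 13.03, 12.47, 12.56 and 15.03 CPM in Scx-positive libraries 2, 3, 5 and 6, and at 15.08, 14.92, 14.80 and 15.88 CPM in Scx-deleted libraries 2, 3, 4 and 5. Scx-positive library 6 alone reached into the range of the Scx-deleted libraries, and the log2 change was 0.19 ± 0.08 (SE; 95% interval 0.01 to 0.38) with an adjusted p of 0.0714 in edgeR. Without that library it was 0.26 with an adjusted p of 0.0178 in edgeR. With any other single library left out, Scx-positive library 5 among them, Fgf2 did not pass (adjusted p 0.0972 to 0.178 in edgeR). Part of Fgf2 lies opposite Nudt6, with 640 shared exon bases, and without strand information reads of the pair cannot be told apart. Nudt6 itself had 4.89 and 4.47 CPM in Scx-positive and Scx-deleted libraries and a log2 change of -0.14 (adjusted p 0.421 in edgeR).

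Fgf1 was near the limit of measurement, with 19, 14, 15 and 18 counts in Scx-positive libraries 2, 3, 5 and 6, and 14, 25, 8 and 32 counts in Scx-deleted libraries 2, 3, 4 and 5. The Scx-deleted libraries spread on both sides of the Scx-positive ones, at 0.46 to 1.44 CPM against 0.60 to 0.82 CPM. The log2 change of 0.40 ± 0.30 (SE; 95% interval -0.33 to 1.13, adjusted p 0.347 in edgeR) leaves room for a fall and for a doubling alike.

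Exact two-sided permutation tests of the mean CPM, which need no model of the spread, gave 0.0286 for each of the 6 called genes. That is the smallest p that the 70 splits of 4 against 4 libraries can give. Any gene whose groups do not overlap receives it, so the result restates the separation given above, which 29.1% of all tested genes shared. For Fgf2 and Fgfr2 the exact permutation p was 0.0857, for Fgfr1 0.229 and for Fgf1 0.429.

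The promoters of the 3 genes with the smallest p are shown because scleraxis belongs to the class of factors that bind the E-box, CANNTG. Each sequence is the 250 bases before the RefSeq start site on build GRCm38.p6, 5′ to 3′ on the gene's strand, with E-boxes in capitals. The motif reads the same on both strands, so each match was counted once. Fgf18 starts on the minus strand, with its promoter at chr11:33147401-33147650. Fgf10 starts on the plus strand, with its promoter at chr13:118714449-118714698. Spry1 starts on the plus strand, with its promoter at chr3:37639697-37639946.
Fgf18: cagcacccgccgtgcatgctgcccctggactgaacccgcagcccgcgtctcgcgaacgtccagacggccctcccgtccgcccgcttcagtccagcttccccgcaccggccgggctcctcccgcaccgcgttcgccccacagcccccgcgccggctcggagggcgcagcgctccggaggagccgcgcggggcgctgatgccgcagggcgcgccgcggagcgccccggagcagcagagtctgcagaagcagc
Fgf10: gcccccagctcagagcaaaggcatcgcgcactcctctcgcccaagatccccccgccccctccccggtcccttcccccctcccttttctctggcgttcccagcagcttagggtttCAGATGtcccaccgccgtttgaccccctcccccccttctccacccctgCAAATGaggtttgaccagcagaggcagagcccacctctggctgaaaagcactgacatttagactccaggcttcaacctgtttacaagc
Spry1: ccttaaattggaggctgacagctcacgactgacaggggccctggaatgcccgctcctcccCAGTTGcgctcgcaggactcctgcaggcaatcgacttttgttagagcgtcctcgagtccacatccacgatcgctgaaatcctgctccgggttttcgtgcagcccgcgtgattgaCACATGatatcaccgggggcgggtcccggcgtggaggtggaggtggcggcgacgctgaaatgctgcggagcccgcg

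The Fgf18 window holds no E-box, has a GC content of 77.2% and contains 37 CpG dinucleotides. The Fgf10 window holds 2, CAGATG at -136 and CAAATG at -88 from the start site, with a GC content of 61.2%. The Spry1 window holds 2 as well, CAGTTG at -190 and CACATG at -76, with a GC content of 62.4%. Windows of 7 of the 10 genes were searched. Fgf1 and Spry4, on chromosome 18, were left out of this search, and Fgfr1 had no matched window. Fgf7, Fgfr2 and Spry2 had 1 E-box each and Fgf2 had none, so 5 of the 7 windows held at least 1. Among all 32851 promoters of this length 66.2% held at least 1 and 31.8% at least 2, with a median GC content of 52.4%. A match is a run of letters and no measure of binding.

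**Figure D2:**
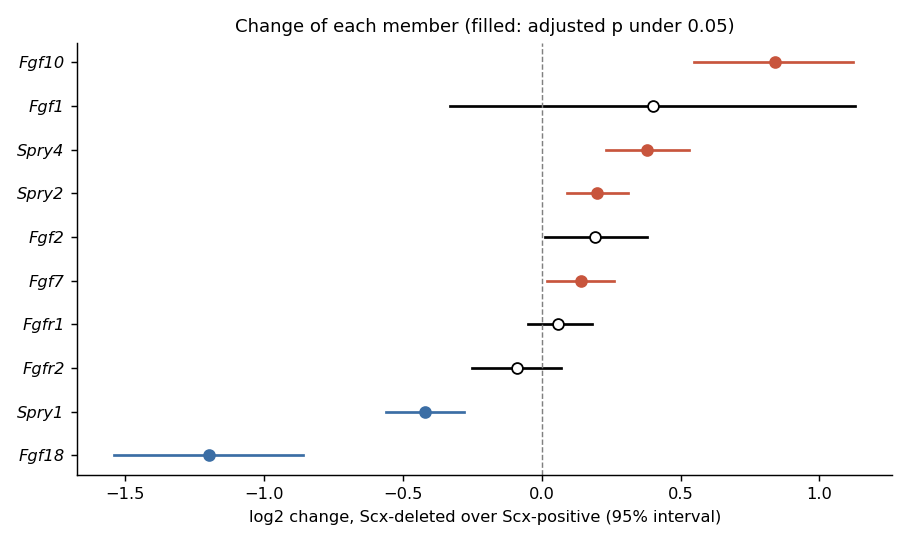
Log2 change of each gene, Scx-deleted over Scx-positive (horizontal axis), with its 95% interval; filled points passed an adjusted p of 0.05 and open points did not. Fgf18 at -1.20 and Fgf10 at 0.84 lie farthest from 0, Fgf1 has the widest interval, and both receptors lie near 0.

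The receptor genes differed little. Fgfr1, the main FGF receptor of mesenchymal cells, stood at 338.6, 322.6, 371.5 and 330.3 CPM in Scx-positive libraries 2, 3, 5 and 6, and at 351.4, 346.0, 359.9 and 367.6 CPM in Scx-deleted libraries 2, 3, 4 and 5. Scx-positive library 5 was the highest of all 8, and the groups overlapped. The log2 change was 0.06 ± 0.05 (SE; 95% interval -0.05 to 0.18) with an adjusted p of 0.329 in edgeR, and 0.11 with an adjusted p of 0.0161 without Scx-positive library 5. Offsets for GC content and length also brought it past the threshold, at 0.10 and an adjusted p of 0.0167.

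Fgfr2, which encodes the receptor that FGF7 and FGF10 bind in epithelia and a mesenchymal splice form that binds FGF18 and FGF2, had 16.9, 17.3, 18.0 and 16.2 CPM in Scx-positive libraries 2, 3, 5 and 6, and 15.4, 16.4, 16.4 and 16.2 CPM in Scx-deleted libraries 2, 3, 4 and 5. Scx-positive library 6 lay among the Scx-deleted libraries and the other three Scx-positive libraries above them. The log2 change was -0.09 ± 0.07 (SE; 95% interval -0.25 to 0.07), and no alternative brought it past the threshold. Within each library Fgfr1 had 18.6 to 20.7 times the CPM of Fgfr2 in Scx-positive cells and 21.1 to 22.8 times in Scx-deleted cells, a ratio that also reflects the genes' lengths. Counts per gene do not separate the splice forms of either receptor.

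The 3 Sprouty genes, which encode intracellular inhibitors of receptor tyrosine kinase signalling towards ERK, moved in opposite directions. Spry1 stood at 53.8, 52.6, 60.1 and 55.7 CPM in Scx-positive libraries 2, 3, 5 and 6, and at 45.0, 41.9, 38.9 and 40.1 CPM in Scx-deleted libraries 2, 3, 4 and 5, with a clear gap between the groups. The mean fell from 55.5 ± 3.28 to 41.5 ± 2.65 CPM (SD, n = 4 each), to 0.747 of the Scx-positive level. The log2 change was -0.42 ± 0.06 (SE; 95% interval -0.56 to -0.28), with an adjusted p of 5.48e-05 in edgeR. Gm42922, annotated on the opposite strand, shares 710 exon bases with Spry1 and was not analysed here.

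Spry4 rose in every Scx-deleted library. It had 27.5, 26.8, 27.8 and 25.0 CPM in Scx-positive libraries 2, 3, 5 and 6, and 34.0, 35.5, 32.3 and 37.6 CPM in Scx-deleted libraries 2, 3, 4 and 5. The group means were 26.8 ± 1.23 and 34.8 ± 2.27 CPM (SD, n = 4 each), 1.30-fold higher. This was a log2 change of 0.38 ± 0.06 (SE; 95% interval 0.23 to 0.53) and an adjusted p of 0.000199 in edgeR. The highest Scx-positive library, at 27.8 CPM, lay well below the lowest Scx-deleted one, at 32.3 CPM.

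Spry2, the Sprouty gene with the highest level per kilobase of exon, rose by less. Its levels were 73.1, 70.2, 72.0 and 75.5 CPM in Scx-positive libraries 2, 3, 5 and 6, and 78.7, 83.1, 83.3 and 88.7 CPM in Scx-deleted libraries 2, 3, 4 and 5. The lowest Scx-deleted library exceeded the highest Scx-positive one. The log2 change was 0.20 ± 0.05 (SE; 95% interval 0.09 to 0.31) with an adjusted p of 0.0043 in edgeR. Without Scx-positive library 5 the log2 changes of Spry1, Spry2 and Spry4 were -0.38, 0.20 and 0.41.

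The balance among the Sprouty genes therefore differed between the groups. The ratio of Spry1 to Spry2 CPM within a library was 0.736, 0.749, 0.834 and 0.738 in Scx-positive libraries 2, 3, 5 and 6, and 0.572, 0.504, 0.467 and 0.452 in Scx-deleted libraries 2, 3, 4 and 5. The ratio of Spry1 to Spry4 was 1.96 to 2.23 in Scx-positive and 1.07 to 1.32 in Scx-deleted libraries. Neither ratio could overlap between the groups, since every Scx-deleted library was lower for Spry1 and higher for Spry2 and Spry4. The ratios thus restate the opposite directions given above. So do the intervals of the log2 changes, where that of Spry1 did not overlap that of either other gene. The fourth gene of the family, Spry3, had no count in any library.

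Read per kilobase of merged exon, the scale on which genes can be ordered, Fgf7 was the highest of the 10 with 48.9 ± 3.20 CPM per kb in Scx-positive libraries (SD, n = 4). Spry2 and Fgfr1 followed at 34.8 ± 1.08 and 34.5 ± 2.18 CPM per kb, and their library values overlapped, so their order was not resolved there. Below them came Spry1 at 19.1, Fgf18 at 8.29, Spry4 at 5.63, Fgf10 at 3.22, Fgf2 at 1.96, Fgfr2 at 1.66 and Fgf1 at 0.136 CPM per kb. No other neighbours in this order overlapped. In Scx-deleted libraries Fgf18 went from the fifth to the seventh place, at 3.62 CPM per kb, below Spry4 at 7.33 and Fgf10 at 5.74. The order depends on which length is used: per kilobase of the longest transcript Fgfr1, at 67.6 CPM per kb, stood above Fgf7 at 59.5 in Scx-positive libraries, and Fgfr2, at 3.86, could not be separated from Fgf10 at 3.61.

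**Figure D3:**
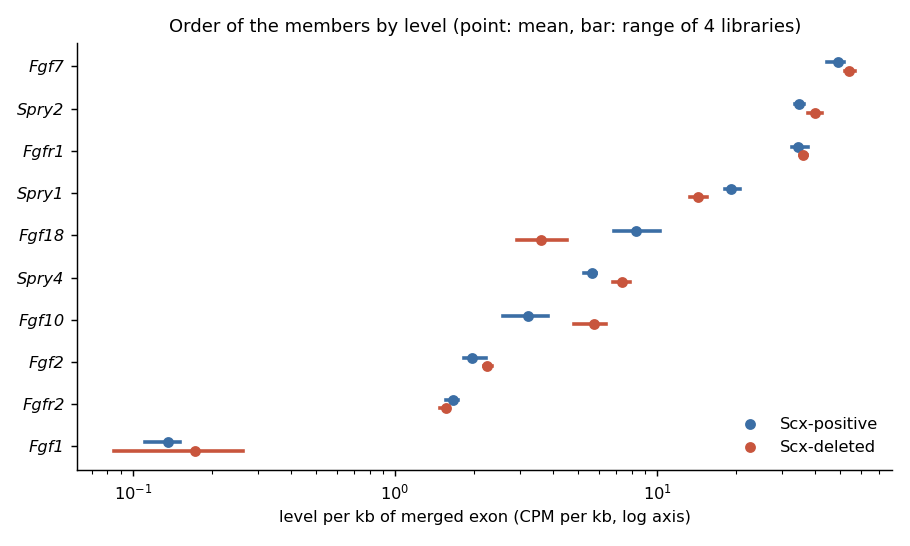
Level of each gene per kilobase of merged exon (horizontal log axis, CPM per kb) in Scx-positive (blue) and Scx-deleted (red) libraries; points are means and bars the range of 4 libraries. Fgf18 moves from 8.29 to 3.62 and Fgf10 from 3.22 to 5.74, so these ligands change places.

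Among 18 secreted FGF ligand genes Fgf7 accounted for most of the summed level per kilobase, with 62.4% ± 2.35 when Scx was present and 68.4% ± 0.511 when it was deleted (SD, n = 4 each). The share of Fgf18 was 10.6% ± 2.15 and 4.61% ± 0.869, and that of Fgf10 was 4.11% ± 0.61 and 7.29% ± 0.872. Fgf2 held 2.50% and 2.85%, and Fgf1 0.173% and 0.220%. The remainder was largely Fgf5, with 17.2% ± 1.05 and 12.2% ± 0.66, a gene outside the 10. These shares are of RNA and depend on the exon length assigned to each gene.

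Of the 17 other FGF genes 4 were expressed highly enough to be tested. Fgf5, known as an inhibitor of hair elongation, fell from 33.6 ± 2.09 to 24.1 ± 1.54 CPM (SD, n = 4 each; log2 -0.48 ± 0.06, adjusted p 4.45e-05 in edgeR). Fgf21, a circulating metabolic hormone that needs β-Klotho as a co-receptor, rose from 1.76 to 2.98 CPM (log2 0.75 ± 0.16). The intracellular relatives Fgf11 and Fgf13 had log2 changes of -0.40 and 0.19 and did not pass. Fgf3, Fgf4, Fgf6, Fgf8 and Fgf15 had no count in any library.

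Other receptors and co-receptors leaned lower: of 18 tested genes of 21 listed, 8 fell and 1 rose, 50.0% in all against 28.5% of all tested genes, with a median log2 change of -0.12. Glypicans, cell surface heparan sulfate proteoglycans, made up 4 of these 9, and the fifth tested one, Gpc2, had 0.06 and did not pass. Gpc6 fell from 267.0 to 200.8 CPM (log2 -0.41 ± 0.04), Gpc4 from 297.8 to 245.9 CPM (-0.28 ± 0.04) and Gpc3 from 4.36 to 2.92 CPM (-0.57), while Gpc1 rose (0.26). The adhesion molecule Ncam1, which can bind FGF receptors, fell from 75.6 to 55.9 CPM (-0.44 ± 0.05), and so did Flrt3 (-0.54 ± 0.08) and Flrt1 (-0.60), membrane proteins that associate with FGF receptors. Fgfr3 fell from 3.04 to 2.25 CPM (-0.43 ± 0.14, adjusted p 0.0335) and Fgfrl1, a receptor without a kinase domain, from 35.1 to 29.8 CPM (-0.24, adjusted p 0.0168 in edgeR). The syndecans Sdc1 to Sdc4 had log2 changes of -0.11, -0.01, -0.13 and 0.04 and did not pass. The count of genes that fell was 5 without Scx-deleted library 5. The call of Fgfr3 was lost without Scx-positive library 2 or 5 or any one Scx-deleted library (adjusted p up to 0.113), that of Flrt1 without Scx-positive library 2 or Scx-deleted library 3 or 5, and that of Fgfrl1 without Scx-deleted library 5. Fgfr3 and Flrt1 also lost it in DESeq2, and Fgfrl1 with replicate numbers 2, 3 and 5 only. Gpc3, Gpc1, Flrt1, Fgfr3 and Fgfrl1, like other genes named from the lists beyond the 4 with the smallest p, were chosen after their values were seen.

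Of 17 tested genes for heparan sulfate synthesis and FGF carriers, 4 fell and 2 rose, with a median log2 change of -0.01. The share called was 35.3%, against 28.5% of all tested genes, and the sulfotransferase genes went in both directions. The 6-O-sulfotransferase gene Hs6st2 fell from 52.3 to 33.8 CPM (log2 -0.63 ± 0.06) and the 3-O-sulfotransferase gene Hs3st1 from 3.82 to 2.37 CPM (-0.70 ± 0.13). The 2-O-sulfotransferase gene Hs2st1 rose from 82.2 to 96.1 CPM (0.22 ± 0.06), and so did Ext1, a polymerase of the chain (0.17 ± 0.05). Hs6st1, another 6-O-sulfotransferase gene, was at -0.02 ± 0.05, and the sulfatases Sulf1 and Sulf2 at -0.01 and -0.10, and none of these passed. The count of genes that fell was 2 without Scx-deleted library 4.

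Of 30 adaptor and ERK cascade genes, all tested, 3 rose and 2 fell, 16.7% against 28.5% of all tested genes, and their median absolute log2 change was 0.06 where that of all tested genes was 0.121. The MEK gene Map2k1 rose from 131.5 to 153.5 CPM (log2 0.22 ± 0.04). The docking protein genes Gab2 and Gab1 went in opposite directions, at 0.28 ± 0.06 and -0.37 ± 0.05, and the ribosomal S6 kinase genes Rps6ka2 and Rps6ka3 did likewise, at 0.25 and -0.41 ± 0.06. The ERK gene Mapk3 had 0.09 and Frs2 had -0.04, and these did not pass. This low share depends on the processing: with offsets for GC content and length 11 of the 30 rose and 2 fell, 43.3% against 38.0% of all tested genes. Without Scx-positive library 5, 6 genes of this list rose.

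**Figure D4:**
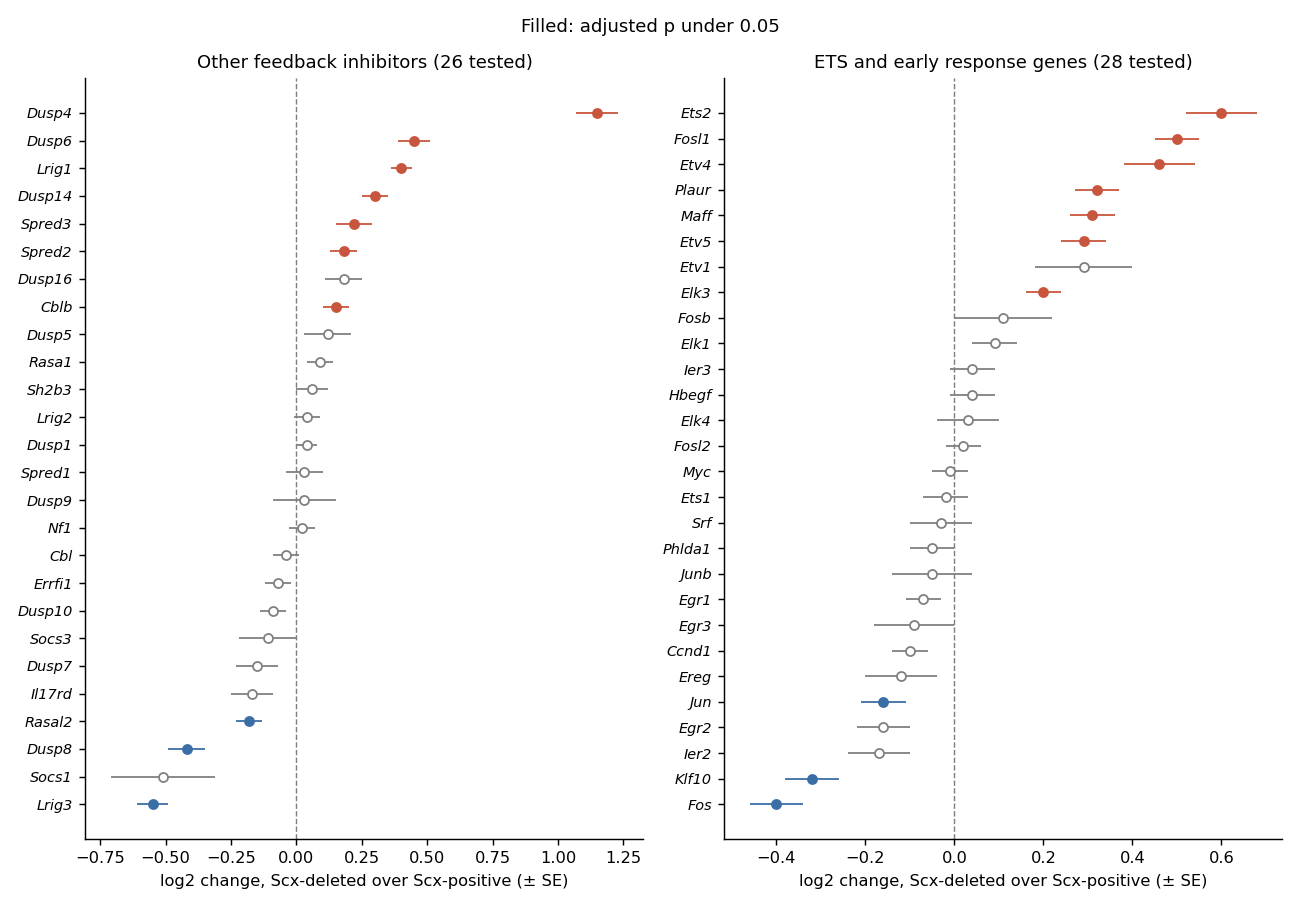
Log2 change (horizontal axis, Scx-deleted over Scx-positive, bars ± SE) of 26 other feedback inhibitors (left) and 28 ETS and early response genes (right); filled points passed an adjusted p of 0.05. Dusp4 at 1.15 stands far above the rest on the left, and on the right Ets2, Fosl1 and Etv4 lead while Fos and Klf10 are lowest.

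Among other inhibitors of receptor kinase signalling, 7 of 26 tested genes rose and 3 fell, 38.5% in all against 28.5% of all tested genes. Dusp4, which encodes a nuclear phosphatase that inactivates ERK, more than doubled, from 11.4 ± 1.29 to 25.5 ± 1.89 CPM (SD, n = 4 each; log2 1.15 ± 0.08, adjusted p 1.32e-07 in edgeR). Dusp6, the cytoplasmic ERK phosphatase that is widely used as a readout of FGF signalling, rose from 39.8 ± 1.78 to 54.5 ± 3.67 CPM (log2 0.45 ± 0.06, adjusted p 2.26e-05 in edgeR). Lrig1 rose from 101.4 to 134.2 CPM and its relative Lrig3 fell from 42.7 to 29.3 CPM (0.40 ± 0.04 and -0.55 ± 0.06). Of the Sprouty-related SPRED genes Spred2 and Spred3 rose (0.18 and 0.22), and Spred1 had 0.03 ± 0.07 and did not pass. Il17rd, which encodes the FGF antagonist SEF, had -0.17 ± 0.08 and Dusp5 0.12 ± 0.09, and neither passed. The count of genes that rose was 4 without Scx-deleted library 5, when Spred2 and Spred3 lost their calls, and Spred2 also lost its call without Scx-positive library 6 and with replicate numbers 2, 3 and 5 only.

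Genes that lie downstream of ERK also went in both directions. Of 28 tested ETS and early response genes 7 rose and 3 fell, 35.7% in all against 28.5% of all tested genes. Their median log2 change was 0.00. The ETS factor genes Etv4 and Etv5, which FGF signalling is known to induce, rose from 7.95 ± 0.575 to 11.0 ± 0.663 CPM and from 27.8 ± 1.01 to 34.1 ± 1.54 CPM (SD, n = 4 each), with log2 changes of 0.46 ± 0.08 and 0.29 ± 0.05. Their relative Etv1 had 0.29 ± 0.11 and an adjusted p of 0.0649 in edgeR. Ets2 rose from 18.1 to 27.5 CPM (0.60 ± 0.08), and so did the AP-1 gene Fosl1 (66.9 to 94.5 CPM, 0.50 ± 0.05) and Plaur, the urokinase receptor gene (0.32 ± 0.05). Fos, an immediate early gene, fell from 43.1 to 32.8 CPM (-0.40 ± 0.06), and Jun (-0.16) and Klf10 (-0.32) fell too. Egr1, Myc and Ccnd1 had -0.07, -0.01 and -0.10 and did not pass. The count of genes that fell was 6 with upper-quartile scaling, and Jun lost its call without Scx-positive library 6 or Scx-deleted library 2 or 5, and with replicate numbers 2, 3 and 5 only.

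Sprouty proteins also act on other receptor kinases, and 10 of 17 tested genes of that list changed, 5 in each direction. Pdgfra fell from 113.2 to 78.3 CPM (log2 -0.53 ± 0.05) while Pdgfrb rose from 428.0 to 503.4 CPM (0.23 ± 0.05). Egfr fell from 82.6 to 66.1 CPM (-0.32 ± 0.05), and Ret, the receptor of the GDNF family, rose from 65.5 to 95.1 CPM (0.54 ± 0.05). The share called, 58.8%, was above the 28.5% of all tested genes, and the median log2 change was 0.03. The number that rose was 3 without Scx-positive library 6, Scx-deleted library 4 or Scx-deleted library 5.

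Some of these genes are also markers of other cells. Pdgfrb and Cspg4 made up most of a mural cell list of 8, of which 2 rose and 2 fell of 7 tested and whose sum was 690 to 821 CPM in Scx-positive and 907 to 929 CPM in Scx-deleted libraries, with the defining gene Rgs5 at 0.98 CPM. The leukocyte list, with 2 of 3 tested genes higher, summed to 5.57 to 7.79 and 8.19 to 10.4 CPM, and the endothelial list, with 1 of 3 higher and 1 lower, to 68.4 to 86.5 and 49.5 to 54.2 CPM, nearly all of it Tek. The Schwann cell list, with 1 of 6 tested genes lower, summed to 63.7 to 74.9 and 62.6 to 81.9 CPM, with Sox10 at 6.22 CPM. Muscle markers, 1 of 2 tested lower, summed to 34.7 to 40.8 and 26.8 to 36.2 CPM, and keratinocyte markers, with 0 of 1 called, to 2.75 to 4.01 and 3.29 to 4.32 CPM. Over all tested genes 28.5% were called in either direction, and each of these lists had at most 7 tested genes. The part of such cells in the changes of the FGF and Sprouty genes was not tested.

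Over the 8 libraries, the genes whose log2 CPM followed these most closely were taken from 11268 genes of at least 2 CPM, as a description that includes the difference between the groups. Fgf18 was most like Glis2, Tbxa2r and Radil (Pearson r 0.997, 0.993 and 0.991), and Spry1 like Ehd2, Tbxa2r and Nfkb1 (0.994, 0.993 and 0.992), so Tbxa2r, the thromboxane receptor gene, followed both genes that fell. Its own log2 change was -1.59, from 18.2 to 6.06 CPM. Fgf10 was most like Degs1, Slc38a2 and Golga3 (0.995, 0.995 and 0.989), genes that changed far less, at 0.18, 0.18 and 0.20. Fgf7 was most like Dgkh, Tmem183a and Sdcbp (0.980, 0.977 and 0.976). Spry2 was most like Polr3c, Cpeb4 and Pdp2 (0.990, 0.980 and 0.979), and Spry4 like Ctns, Slc35f5 and Lhfpl2 (0.989, 0.988 and 0.987). No gene appeared for both Spry2 and Spry4, but with only 3 genes listed for each this does not show that their patterns differed.

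**Figure D5:**
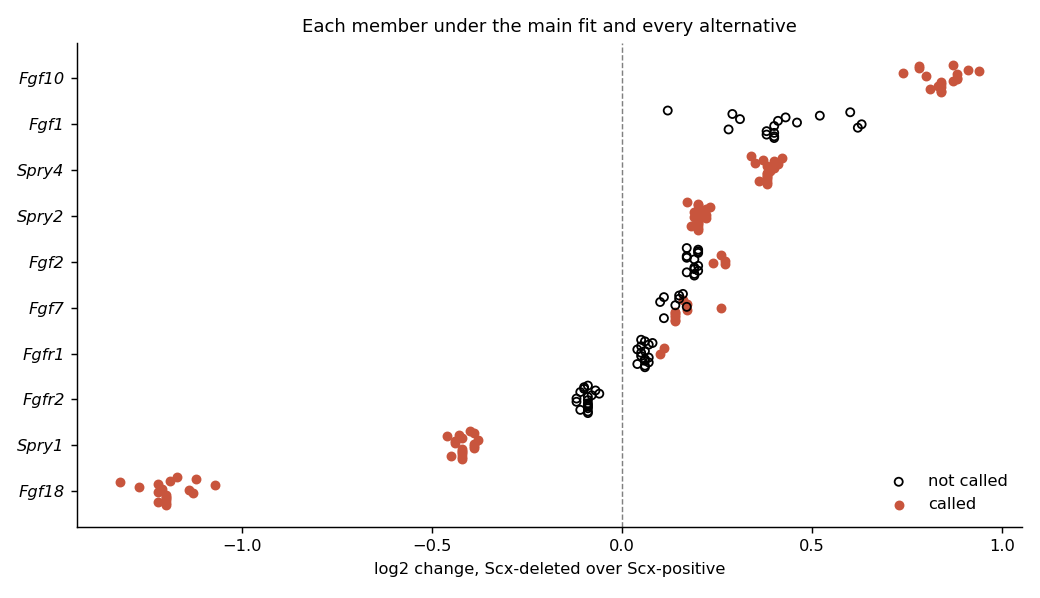
Log2 change of each gene (horizontal axis, Scx-deleted over Scx-positive) in the analysis reported and in each alternative, 1 point per setting; filled points were called and open points were not. Fgf10, Fgf18, Spry1, Spry2 and Spry4 are filled at every setting, Fgf1 and Fgfr2 at none, and Fgf2, Fgf7 and Fgfr1 at some.

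Over 17 alternatives in normalization, filter, tool, covariates and left-out libraries, none of the 10 genes changed sign (Fgf1 had 16, since it did not pass the stricter filter). Leaving out a library could hardly reverse the 6 genes whose groups did not overlap. Fgf18 ranged from -1.32 to -1.07, Fgf10 from 0.74 to 0.94, Spry1 from -0.46 to -0.38, Spry4 from 0.34 to 0.42 and Spry2 from 0.17 to 0.23, and these 5 were called in every one. In the authors' deposited table the log2 changes were -1.22 for Fgf18, 0.93 for Fgf10, -0.43 for Spry1, 0.37 for Spry4 and 0.21 for Spry2, with adjusted p-values of 2.93e-15, 1.69e-17, 4.17e-13, 2.45e-07 and 0.000115. The authors' deposited table also gave Fgf7 0.17 with an adjusted p of 0.000418 and Fgfr1 0.09 with an adjusted p of 0.0445. That table appears to rest on other counts than those tested here: the mean for Fgf7 in the authors' deposited table was 4922, where no library held more than 3965 counts, and for Fgfr1 it was 9791, where none held more than 9231. Fgf2, at 0.20, and Fgfr2, at -0.09, had adjusted p-values of 0.114 and 0.419 in the authors' deposited table.

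In GENCODE on GRCm38, Fgf7 (ENSMUSG00000027208.14) lies on the plus strand of chromosome 2 from 126034658 to 126091185. Fgf2 (ENSMUSG00000037225.13) and Spry1 (ENSMUSG00000037211.12) are close together on chromosome 3, from 37348346 to 37410108 and from 37639947 to 37644598. Fgf10 (ENSMUSG00000021732.14) lies on chromosome 13 from 118669791 to 118792115, which begins before the RefSeq start at 118714699, Fgf18 (ENSMUSG00000057967.12) on chromosome 11 from 33117430 to 33147400, Fgfr1 (ENSMUSG00000031565.18) on chromosome 8 from 25513654 to 25575718 and Spry2 (ENSMUSG00000022114.5) on chromosome 14 from 105891947 to 105896819. The GENCODE model of Fgfr2 (ENSMUSG00000030849.18), on chromosome 7 from 130162451 to 133123350, extends far beyond its RefSeq start at 130266808, shares 314 exon bases with Ctbp2, and makes its level per kilobase uncertain. Spry4 (ENSMUSG00000024427.7) and Fgf1 (ENSMUSG00000036585.16) are neighbours on chromosome 18, from 38586247 to 38601415 and from 38838673 to 38929472. All 10 are protein coding. Exon bases are also shared with opposite-strand genes by Fgf10 (123 with Gm16263) and Fgfr1 (164 with Gm16159). Fgf2 shares 255 with Gm43439 on its own strand. The share of reads from these overlaps was not tested.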

How the data were processed

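RNA from 8 libraries of cultured mouse tail tendon fibroblasts was extracted with a miRNeasy Micro kit and DNase I and sequenced after Illumina library preparation, per the labels' protocols. STAR, DESeq2, FastQC and mm10 are named in the submitters' processing notes; the counter, the annotation and any use of strand were not given in the sources used here. The authors deposited whole-number counts per gene, not normalized, which fed every test. Rows for reads in no feature (7.44% to 8.67%) and ambiguous reads (0.490% to 0.567%) were left out. The authors' deposited comparison table holds a mean signal, a log2 fold change, scores (standard error and statistic) and p-values, per the file headers; it appears to rest on other counts, its direction was read from the sign for Scx, and 2 of its columns were not used.

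Of the symbols, GENCODE mouse release 21 placed 98.0% (24490 of 24982). In edgeR 4.0.16 (R 4.3.3), filterByExpr (minimum count 10, total 15) kept 13125 genes, TMM factors scaled the libraries, and quasi-likelihood F tests of the genotype, with no other term, were adjusted by Benjamini-Hochberg at 0.05. The SE of a log2 change is its size over the root of F. Intervals are 95% with 6 degrees of freedom. Levels are CPM with TMM factors. Within each group every pair of libraries differed by more than sampling noise (chi-square per degree of freedom 2.42 or more), so none was taken for a library deposited more than once; this does not show that cultures or animals were separate.

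The 10 genes and the 7 gene lists were chosen with earlier results of these data known. The rule named the 10 genes, Scx and up to 4 called genes with the smallest p per list. It also named, for the called genes, the 3 genes most alike over 8 libraries, leaving out predicted genes and pseudogenes. Other list genes, such as Etv4, Etv5, Spred2 and Spred3, were named outside this rule after their values were seen. Some list genes with a smaller p than these were left unnamed. Some list and marker genes are counted but not reported here by name. Permutation tests used scipy 1.17.1. The alternatives comprised upper-quartile and RLE scaling, no filter, 5 CPM in 4 libraries, DESeq2 1.42.0, limma-voom (limma 3.58.1), a block for the replicate number, only numbers 2, 3 and 5, offsets for GC content and length, and each library left out. In counts simulated for 13057 genes from the means and depths found here, changes of 1.25-fold, 1.5-fold and 2-fold were planted in 50, 100 and 50 genes. Of these 60%, 88% and 92% were found, and false calls made up 7.34% of calls. Far fewer genes were planted than were called in the data, so these rates need not hold for the data.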

Additional observations from a re-analysis of the deposited data

How the results depend on the processing

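No change reversed its sign under the 17 alternatives run, for the 10 FGF and Sprouty genes or for the 26 list genes named by smallest p. Since the 26 were picked by small p in these same data, an unchanged sign adds little for them. For the 6 called FGF and Sprouty genes, whose groups did not overlap, leaving out a library could hardly reverse the sign. Fgf1, Fgf21 and Hs3st1 had 16 of the alternatives, since they were not tested with 5 CPM in 4 libraries. With GC content and length offsets, 2820 genes were called higher in place of 1842, Fgf2 (0.24) and Fgfr1 (0.10) passed the threshold, and calls rose to 5 higher for heparan sulfate, 11 higher for the ERK cascade (from below to above the share of all genes) and 6 lower for early response genes. Upper-quartile scaling gave 0.11 for Fgf7, which no longer passed, and 6 early response genes lower; over all genes it gave 1539 higher and 2288 lower. With numbers 2, 3 and 5 only, 1239 genes were called lower in place of 1902, Fgf2 passed (0.27), Fgf7 did not (0.17), heparan sulfate genes had 2 lower and 1 higher, and other kinases 2 higher. With 5 CPM in 4 libraries, other ligands had 0 higher, co-receptors 5 lower, heparan sulfate 2 lower and other kinases 2 higher. Without a filter 2 other ligands were lower, and with DESeq2 3 other kinases were higher. The replicate block, with 1 heparan sulfate gene higher and Fgf2 past the threshold at 0.27, gave 1561 genes higher and 1676 lower; deviations of same-numbered libraries correlated at -0.06, 0.16 and 0.06, so the numbers were not taken as pairs. Leaving out 1 library each gave 0.17 to 0.26 for Fgf2, 0.10 to 0.17 for Fgf7 and 0.04 to 0.11 for Fgfr1. It gave 5 to 8 co-receptors lower, 2 to 4 heparan sulfate genes lower, 3 to 6 cascade genes higher, 4 to 7 feedback inhibitors higher and 3 to 5 other kinases higher. The causes were not tested. Ext1 lost its call with the block and with numbers 2, 3 and 5 only. Depth limits Fgf1, whose libraries held 8 to 32 counts.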

Other observations

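Several FGF genes lay below the filter on low counts. Fgf9, a ligand that acts on mesenchymal receptor forms, had 28 counts over the Scx-positive and 8 over the Scx-deleted libraries, with 4 to 13 and 1 to 3 per library. Without the filter it had a log2 change of -1.59 ± 0.55 (SE; adjusted p 0.0394 in edgeR), so it would be called lower, the same direction as Fgf18. Fgf20, of the same subfamily as Fgf9, had 9 and 1 counts (-2.54 ± 1.15, adjusted p 0.127 in edgeR), Fgf16 had 40 and 29, and Fgfr4 had 8 and 2. Fgf12, Fgf22 and Fgf23, with 8 counts each over all libraries, had log2 changes of -1.25 ± 1.04, -1.24 ± 1.16 and -0.52 ± 1.04 (SE), too few counts to give a direction. The same holds for Fgf14, with 2 and 6 counts (log2 1.52 ± 1.12), and Fgf17, with 3 and 4 (0.50 ± 1.02), whose changes were positive. Of these genes only Fgf9 passed. Klotho (Kl) and β-Klotho (Klb), the co-receptors of the hormone-like FGFs, had 1 and 7 counts in all 8 libraries together, so the rise of Fgf21 occurred in cells with almost no RNA of the co-receptor it needs.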
